A study of Mus musculus with 40 samples.

Results

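The genes described here are Ccl27a, Gm13298, Gm1987, Gm13308, LOC100503421, 4933409K07Rik, Gm3893, Creb3 and Cd72. A probe belonged to the set when the gene name in the scanner's table equalled one of these 9 names, which gave 17 probes of 55589, and 9 gene names of 36362. On mm9, the mouse build of the files, 15 of the probes lie on chromosome 4 between 41716345 and 43579898, a stretch of 1863.6 kb, and the 2 probes of Gm3893 lie on unplaced sequence. The genes were listed because of their low signal in Ttpa-/- mice fed without vitamin E, that is, chosen by the readout of these same arrays, as a possible strain or copy-number difference, so every level and every difference of the 17 probes below is a description without a test. Genomic DNA was not analysed here.

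The study asked how chronic oxidative stress and aging change gene expression in the brain, using mice that lack Ttpa, the alpha-tocopherol transfer protein that loads vitamin E from the liver into the circulation. RNA of the cerebral cortex and of the cerebellum was measured on 40 1-colour Agilent arrays, 4 for each of 10 groups, and the methods state that 4 mice per group were used. Each region had young wild-type mice, aged 2 months and given the normal diet, which holds 36 mg alpha-tocopherol per kg, and 4 groups aged 29 months. These were wild-type normal mice on that diet, wild-type deficient mice on a diet deficient in vitamin E, Ttpa-/- deficient mice on the same deficient diet, and Ttpa-/- supplemented mice, whose diet held 600 mg alpha-tocopherol per kg. The labels name C57Bl/6 as the strain of all mice, and no Ttpa-/- mice on the normal diet or of 2 months were measured.

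Ccl27 is a chemokine known for drawing T cells to the skin through its receptor Ccr10, and its neighbours Ccl19 and Ccl21 signal through Ccr7 and guide lymphocytes and dendritic cells into lymph nodes. In the mouse, this stretch of chromosome 4 carries several near-identical copies of Ccl27, Ccl21 and the interleukin 11 receptor gene, many of them under provisional Gm names, so that 1 probe can read several copies. Gm13298 is now called Fam205a2 in RefSeq and belongs to a gene family whose role is little known. Creb3 is a transcription factor held in the endoplasmic reticulum membrane and released by cleavage, and Cd72 is a B-cell surface receptor that recruits the phosphatase Ptpn6.

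Probe sequences are given because several of these genes are near-identical and the results turn on what each probe matches. For Gm13298, 3 probes were bright and lie within 1 short stretch of chromosome 4. Those of Gm13298, LOC100503421, 4933409K07Rik and Gm3893 are printed whole, from 5′ to 3′.
Gm13298, chr4:41842107-41842166, plus strand: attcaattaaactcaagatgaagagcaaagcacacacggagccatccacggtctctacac
Gm13298, chr4:41841838-41841897, plus strand: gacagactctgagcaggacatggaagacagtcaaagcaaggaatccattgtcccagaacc
Gm13298, chr4:41841716-41841775, plus strand: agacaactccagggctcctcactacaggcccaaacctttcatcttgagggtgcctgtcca
LOC100503421, chr4:41764044-41764103, plus strand: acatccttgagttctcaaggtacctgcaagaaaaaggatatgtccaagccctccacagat
4933409K07Rik, chr4:42472710-42472769, plus strand: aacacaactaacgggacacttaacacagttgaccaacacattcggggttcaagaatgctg
Gm3893, chrUn_random:553634-553693, minus strand: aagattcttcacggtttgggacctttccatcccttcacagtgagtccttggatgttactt
Gm3893, chrUn_random:551528-551587, minus strand: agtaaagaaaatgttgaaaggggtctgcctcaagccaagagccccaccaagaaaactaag

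The transcript identifiers that the files attach to the second of these Gm13298 probes name both Fam205a2 and Gm3893 in RefSeq, and Gm3893 and 4933409K07Rik are entered there as transcribed pseudogenes. Of 45 RefSeq identifiers on the 17 probes 36 were found in the reference table, those of LOC100503421 were not among them, and 5 probes named more than 1 gene. Where a probe names several genes, its signal cannot be divided between them.

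A pair of Ccl21 probes differs at few bases, and the identifiers of both name Gm10591 and Gm13304. The Gm1987 probe, whose identifiers name Ccl21a, Gm10591, Gm13304 and Gm1987, and the Gm13304 probe, whose identifiers name Ccl21b, Ccl21c, Gm10591 and Gm13304, share 54 of 56 aligned bases and differ by T2C and G46A, counted from the 5′ end of the Gm1987 probe. Their last 30 shared bases are printed with the base that differs in capitals.
Gm1987, bases 27 to 56: atacctaactgaataaaaaGgtgatccagc
Gm13304, bases 31 to 60: atacctaactgaataaaaaAgtgatccagc

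Likewise, a Ccl27a probe and a Gm13308 probe share 53 of 60 bases, and all 7 differences fall at the 5′ end. Counted from the 5′ end of the Ccl27a probe they are C2T, G3C, G4A, A5G, G6A, C7G and C10T, in capitals in the first 30 bases of each probe.
Ccl27a, bases 1 to 30: tCGGAGCccCggacatgtcgcgattgagga
Gm13308, bases 1 to 30: tTCAGAGccTggacatgtcgcgattgagga

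Levels below are the processed signal divided by the 75th percentile of its array, on the log2 scale, called the scaled log2 signal, and the brightest probe stands for a gene with several. Signals of different probes are not on a common scale, so levels are compared between arrays only. An array where the probe was not well above background by the scanner's flag is marked as such. Between 28623 and 34178 probes were well above background on an array, no spot of the 17 probes was saturated, and arrays of a group correlated at 0.973 to 0.993. A list of cortex genes was at 1.56 to 2.23 on the cortex arrays and -4.98 to -4.11 on the cerebellum arrays, and a list of cerebellum genes at 5.49 to 6.07 on the cerebellum arrays and -2.55 to -2.06 on the cortex arrays, so both lists were high in the labelled tissue. In the cerebellum, the brighter Ttpa probe was well above background on 0 of 4 arrays of Ttpa-/- deficient mice, at least 2.64-fold lower than in wild-type normal mice (limma adjusted p = 4.16e-08). In Ttpa-/- supplemented mice it was well above background on 1 of 4 arrays and 5.04-fold lower (limma adjusted p = 3.58e-05). This fold takes dim arrays at their measured signal, so it cannot be set beside the bound of at least 2.64-fold. The other Ttpa probe was well above background on 1 array of Ttpa-/- deficient mice and on 0 of wild-type normal mice in the cerebellum, and in the cortex Ttpa was too dim to test. Whether these probes lie in the deleted part of the gene is not given in the sources used here. Each group was hybridised on 1 of 5 slides, with 2 groups per slide, so that slide and group cannot be told apart where the compared groups lie on different slides. In both regions, each Ttpa-/- group lay on another slide than the wild-type normal mice. The same held for young against aged wild-type mice in the cerebellum and for wild-type deficient against wild-type normal mice in the cortex.

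Gm13298 had the pattern shared by most of the genes. In the cortex the scaled log2 signal of its 4 arrays was 1.80, 1.86, 1.90 and 2.41 in young wild-type mice, 1.53, 1.59, 1.86 and 1.62 in wild-type normal mice, 0.99, 0.77, 1.21 and 1.74 in wild-type deficient mice, and 1.38, 1.23, 1.80 and 1.73 in Ttpa-/- supplemented mice. In Ttpa-/- deficient mice it was -5.01 (not well above background), -0.63, -4.33 and 0.11. All 4 of these arrays lay below the lowest of the other 16 cortex arrays, 0.77, and they fell into different ranges, with replicates 1 and 3 far below replicates 2 and 4. Relative to the mean of the wild-type normal mice, replicate 1 was at most at 1.335%, taking the lowest signal well above background on that array as the bound, and the others were at 20.6%, 1.59% and 34.3%.

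In the cerebellum Gm13298 was at 1.65, 1.31, 1.42 and 1.63 in the young wild-type mice, 1.11, 1.49, 1.47 and 1.34 in wild-type normal mice, 1.24, 0.53, 1.30 and 1.62 in wild-type deficient mice, and 1.46, 1.15, 1.46 and 1.44 in Ttpa-/- supplemented mice. Ttpa-/- deficient mice gave -5.65, -6.93 and -5.42, all not well above background, and -0.34 in replicate 4. Replicate 4 was the only array well above background, and it was at 30.9% of the wild-type mean. No array of this group overlapped with any of the other 16 cerebellum arrays, the lowest of which was 0.53.

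The mean difference between Ttpa-/- deficient mice and wild-type normal mice was -4.11 (SE 0.86, n = 4 in each group) in the cortex and -5.94 (SE 0.86) in the cerebellum. Every SE given here is from limma, with a spread per probe pooled over all 10 groups, so it is equal in both regions. The SD within Ttpa-/- deficient mice was 2.58 in the cortex and 2.91 in the cerebellum, beside 0.14 and 0.17 in wild-type normal mice. The pooled SE thus understates the spread of this contrast. Since 1 of 4 arrays in the cortex and 3 of 4 in the cerebellum were not well above background, the signal was at least 16.1-fold and at least 31.7-fold lower, with such arrays set to that bound. Replicate 4 alone moved the differences, to -4.97 in the cortex and -7.35 in the cerebellum without it, while leaving out replicate 1 in the cortex gave -3.26 and replicate 2 in the cerebellum -5.16. Bounds of this kind hold for the processed signal only. With the normexp background correction the cerebellum difference was -3.66, and the smallest cortex difference among the alternatives of processing was -3.00. In bulk tissue, fewer cells of a type and less RNA per cell cannot be told apart.

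**Figure D1:**
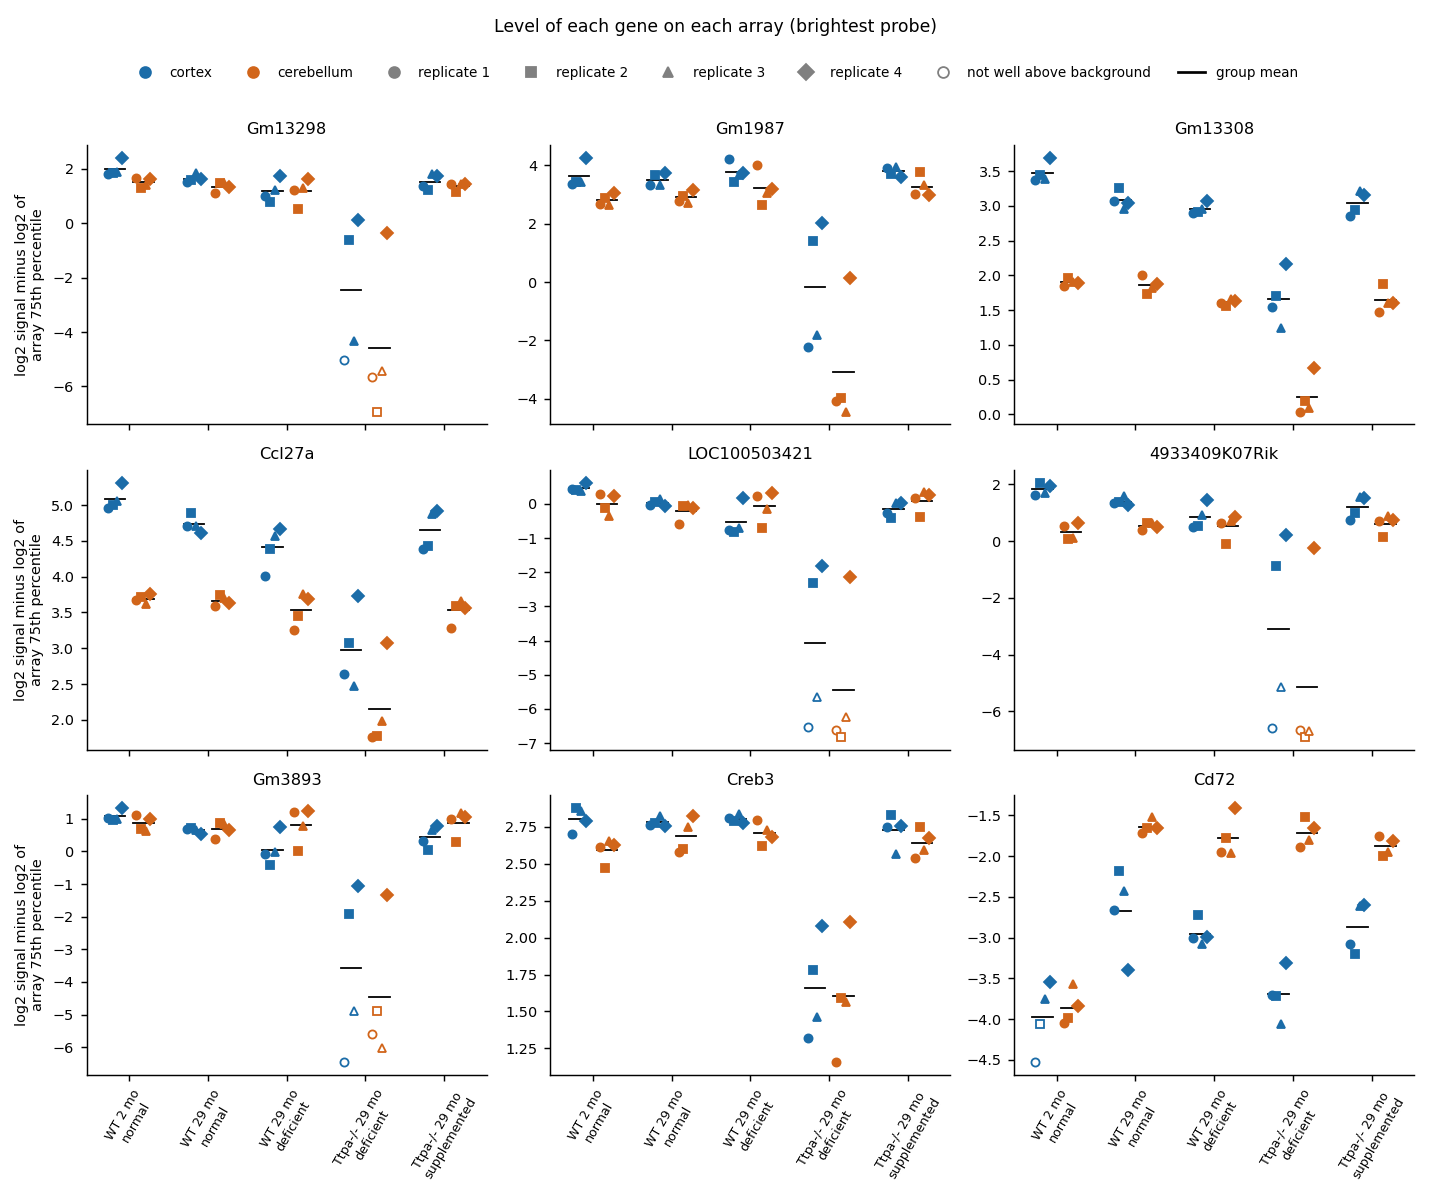
Scaled log2 signal of the brightest probe of each of the 9 genes on each array, with the 5 groups of each region on the horizontal axis, single arrays as points and group means as lines. Arrays of Ttpa-/- deficient mice lie lowest for 8 of the genes in both regions and spread over several log2 units for Gm13298, Gm1987, LOC100503421, 4933409K07Rik and Gm3893, from -6.93 to 0.11 for Gm13298.

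The other bright Gm13298 probes were low on the same arrays. The second was at -6.69 (not well above background), -0.62, -4.54 and 0.12 in the cortex and at -6.79, -7.04 and -6.82 (all not well above background) and -0.49 in the cerebellum of Ttpa-/- deficient mice. Its differences from wild-type normal mice were -4.58 and -6.58, at least 16.6-fold and at least 31.3-fold lower. The third probe was at -4.68 (not well above background), -1.71, -4.89 (not well above background) and -0.9998 in the cortex and at -3.41, -4.20, -4.07 and -1.55 in the cerebellum, where all 4 arrays were well above background. Its differences were smaller, at -3.47, at least 10.8-fold lower, and at -3.31, 9.93-fold lower. The remaining probe, which was dim in all groups, differed by -0.89 in the cortex and 0.16 in the cerebellum, where it passed no filter on low signal.

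LOC100503421, 4933409K07Rik and Gm3893 followed the same arrays. LOC100503421, unnamed in the reference table, was at -0.02, 0.05, 0.14 and -0.05 in the cortex of wild-type normal mice and at -6.53 (not well above background), -2.30, -5.65 (not well above background) and -1.82 in Ttpa-/- deficient mice. In the cerebellum the wild-type arrays were at -0.60, -0.07, -0.04 and -0.11, and those of Ttpa-/- mice at -6.63, -6.82 and -6.23, all not well above background, and -2.13. Replicates 2 and 4 were the ones well above background in the cortex, and replicate 4 the only one in the cerebellum.

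For 4933409K07Rik, a transcribed pseudogene, the wild-type arrays were at 1.34, 1.36, 1.57 and 1.27 in the cortex and 0.41, 0.64, 0.65 and 0.48 in the cerebellum. Ttpa-/- deficient mice gave -6.57 (not well above background), -0.89, -5.14 (not well above background) and 0.22 in the cortex, and -6.67, -6.90 and -6.71, all not well above background, and -0.23 in the cerebellum. Replicate 4 of the cerebellum reached 58.2% of the wild-type mean while the other 3 arrays were at most at 2.34% to 2.71% of it.

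Gm3893 was at 0.68, 0.71, 0.67 and 0.54 in the cortex of wild-type normal mice and at -6.45 (not well above background), -1.93, -4.88 (not well above background) and -1.05 in Ttpa-/- deficient mice. In the cerebellum the wild-type values of 0.38, 0.85, 0.83 and 0.67 stood against -5.60, -4.89 and -6.03, all not well above background, and -1.34. Differences from wild-type normal mice were -4.11 (SE 0.73) and -5.25 (SE 0.73) for LOC100503421, -4.48 (SE 1.02) and -5.67 (SE 1.02) for 4933409K07Rik and -4.22 (SE 0.75) and -5.15 (SE 0.75) for Gm3893, in the cortex and the cerebellum. With 2 of 4 and 1 of 4 arrays well above background, the signals were at least 10.6-fold, 14.9-fold and 13.4-fold lower in the cortex and at least 14.7-fold, 17.8-fold and 23.7-fold lower in the cerebellum, in the same order. These differences depend on single arrays and on the background correction. Without replicate 4 they were -4.86, -5.59 and -5.07 in the cortex and -6.36, -7.30 and -6.19 in the cerebellum, and without replicate 1 they were -3.29, -3.32 and -3.26 in the cortex. With normexp the cerebellum differences were -2.64, -3.06 and -3.35. The smallest cortex differences among the alternatives of processing were -2.15, -2.89 and -2.56.

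The second Gm3893 probe was well above background on all 4 cortex arrays of Ttpa-/- deficient mice, at -4.49, -2.11, -4.31 and -1.42, and differed less from wild-type normal mice than the first, by -3.00 (SE 0.48), 7.98-fold lower. In the cerebellum it was at -4.68, -5.23 and -4.78, all not well above background, and -2.16, and differed by -3.75 (SE 0.48), at least 12.4-fold lower. Replicates 2 and 4 of the cortex and replicate 4 of the cerebellum were again the higher arrays.

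Gm1987, a copy of the Ccl21 chemokine gene, was well above background on all 40 arrays. In wild-type normal mice it was at 3.32, 3.67, 3.33 and 3.73 in the cortex and at 2.77, 2.96, 2.73 and 3.17 in the cerebellum. Ttpa-/- deficient mice were at -2.24, 1.40, -1.83 and 2.01 in the cortex and at -4.08, -3.99, -4.45 and 0.14 in the cerebellum, all below the lowest of the other arrays of their region, which were 3.32 and 2.64. The difference was -3.68 (SE 0.70), 12.8-fold lower, in the cortex and -6.00 (SE 0.70), 64.0-fold lower, in the cerebellum. Without replicate 4 it was -4.40 and -7.08, and without replicate 1 it was -2.99 in the cortex. The smallest differences among the alternatives of processing were -3.38 in the cortex and -4.94 in the cerebellum. As percentages of the wild-type mean, the cortex arrays were at 1.85%, 23.2%, 2.46% and 35.3% and the cerebellum arrays at 0.790%, 0.842%, 0.611% and 14.7%.

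For its near-identical partner Gm13304, neither region's difference passed the test. The Gm13304 probe was at 4.60, 4.87, 4.53 and 5.07 in the cortex of wild-type normal mice and at 4.76, 4.71, 4.33 and 4.36 in Ttpa-/- deficient mice, a difference of -0.23 (limma adjusted p = 0.431). In the cerebellum, values of 4.08, 4.03, 3.95 and 4.37 stood against 3.54, 3.92, 3.83 and 3.34, a difference of -0.45 (limma adjusted p = 0.114). The groups overlapped in the cortex and not in the cerebellum.

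**Figure D2:**
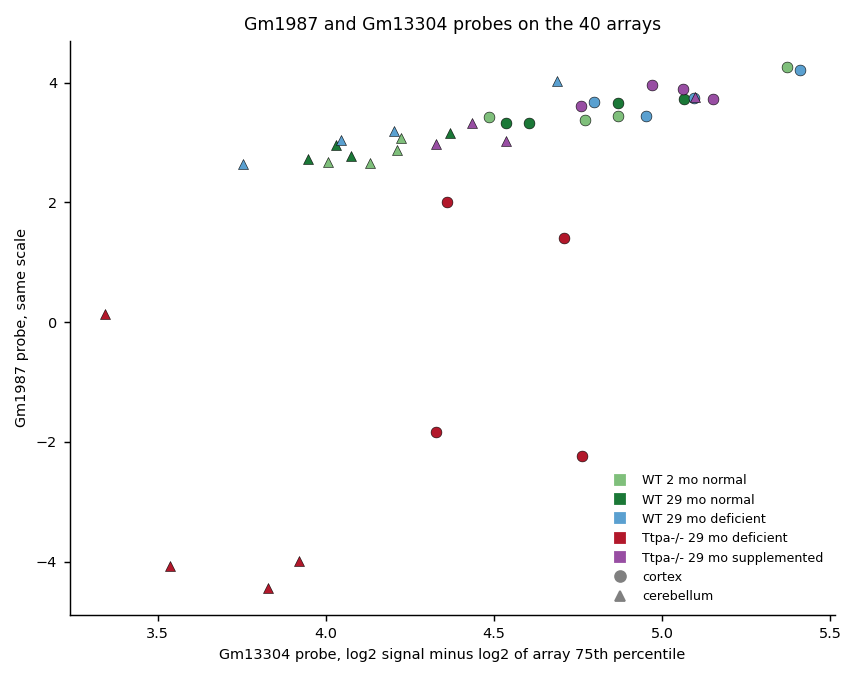
Scaled log2 signal of the Gm1987 probe (vertical axis) against that of the Gm13304 probe (horizontal axis) on the 40 arrays, coloured by group, with circles for the cortex and triangles for the cerebellum. The 8 arrays of Ttpa-/- deficient mice spread from -4.45 to 2.01 on the Gm1987 probe and lie below the other 32 arrays, which are at 2.64 to 4.27.

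Ccl27a and Gm13308, the Ccl27 copies, were lower in the same mice but kept a clear signal on every array. Ccl27a was at 4.70, 4.89, 4.71 and 4.61 in the cortex of wild-type normal mice and at 2.64, 3.07, 2.47 and 3.73 in Ttpa-/- deficient mice. In the cerebellum the values were 3.59, 3.75, 3.70 and 3.63 against 1.76, 1.78, 1.98 and 3.07. Replicate 4 was again the highest, at 49.96% of the wild-type mean in the cortex and 66.1% in the cerebellum, with the other arrays at 20.9% to 31.7% and at 26.7% to 31.1%. The differences were -1.75 (SE 0.22), 3.37-fold lower, and -1.52 (SE 0.22), 2.87-fold lower, and the other Ccl27a probes gave -1.64 and -1.66 in the cortex and -1.53 and -1.97 in the cerebellum.

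Gm13308, entered as Gm21953 in RefSeq, was at 3.07, 3.27, 2.95 and 3.04 against 1.54, 1.70, 1.24 and 2.17 in the cortex and at 2.01, 1.74, 1.82 and 1.87 against 0.04, 0.20, 0.09 and 0.67 in the cerebellum. The groups were apart in both regions, and the spread within Ttpa-/- deficient mice was far smaller than for Gm13298. Differences were -1.42 (SE 0.13) and -1.61 (SE 0.13) for this probe, 2.68-fold and 3.06-fold lower, and -1.68 and -1.89 for its other probe, whose identifiers also name Ccl27a.

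Creb3 lies at the far end of the stretch. In wild-type normal mice it was at 2.77, 2.77, 2.82 and 2.76 in the cortex and at 2.58, 2.60, 2.75 and 2.83 in the cerebellum. Ttpa-/- deficient mice were at 1.32, 1.78, 1.46 and 2.08 and at 1.16, 1.59, 1.57 and 2.11, while all other 32 arrays lay between 2.47 and 2.88. The SD within Ttpa-/- deficient mice was 0.34 and 0.39. The difference was -1.12 (SE 0.13), 2.17-fold lower, in the cortex and -1.08 (SE 0.13), 2.12-fold lower, in the cerebellum. Replicate 4 was the highest in both regions here too, at 61.4% and 67.0% of the wild-type mean.

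Cd72 differed from the other genes. In the cortex it was at -2.66, -2.19, -2.43 and -3.40 in wild-type normal mice and at -3.70, -3.71, -4.06 and -3.31 in Ttpa-/- deficient mice, groups that overlapped, with a difference of -1.03 (SE 0.20), 2.04-fold lower, which was -0.39 with normexp. In the cerebellum the values of -1.72, -1.66, -1.51 and -1.66 against -1.89, -1.52, -1.80 and -1.65 differed by -0.08 (SE 0.20). Its other probe, which shares 49 bases with the first, gave -1.18 and -0.09. The mean of Cd72 was thus lower in the cortex and close to that of wild-type normal mice in the cerebellum.

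Over the set, 16 of 17 probes in the cortex and 14 of 16 tested probes in the cerebellum passed the call of adjusted p under 0.05 and fold over 1.5 in the lower direction, where 1.60% and 1.79% of all tested probes did. Nothing is read from these counts, since the genes were listed from this same contrast. The median difference of the tested probes was -1.75 in the cortex and -2.64 in the cerebellum, beside -0.02 and -0.02 over all probes tested. Groups did not overlap for 14 probes in either region, beside 11.6% and 7.79% of all tested probes in that direction. Other tissue markers also moved in this contrast. In the cortex of Ttpa-/- deficient mice 2 of 6 striatal genes rose (Drd2 and Ppp1r1b, median 0.60), where 909 of 28913 tested probes rose. The medians of 7 choroid plexus genes and 2 tested blood genes, which were not called, were 0.68 and 1.80. In the cerebellum 1 of 2 tested B-cell genes fell (Cd79b, median -1.20) and 1 of 5 microglia genes (Aif1, median -0.05). Of all tested probes there, 1.79% fell. Cd79b was also called lower in the cerebellum of Ttpa-/- supplemented mice. The part of these cell types and tissues in the levels of the set was not tested. For 8 of the 17 probes, all 8 arrays of Ttpa-/- deficient mice lay below all other 32 arrays of both regions.

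**Figure D3:**
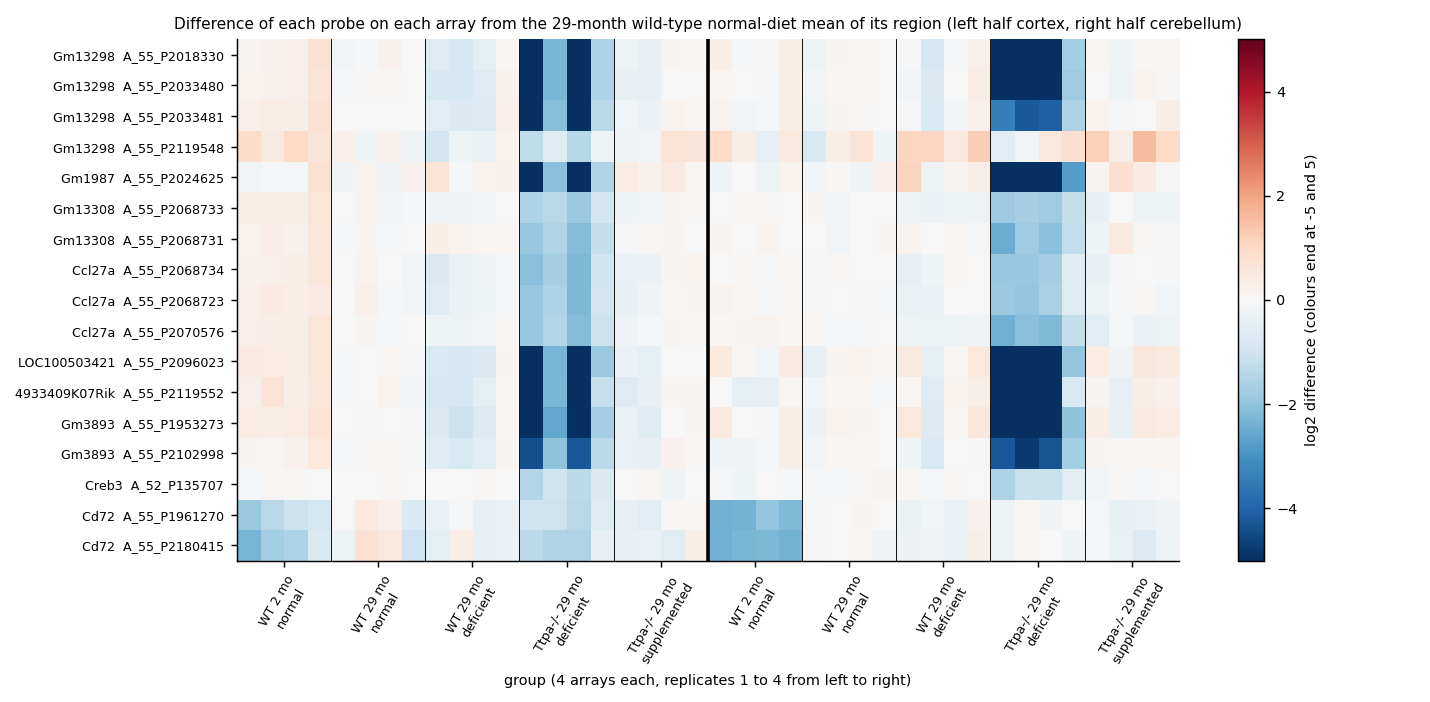
Log2 difference of each of the 17 probes on each of the 40 arrays from the mean of wild-type normal mice in the same region, cortex on the left and cerebellum on the right, with replicates 1 to 4 from left to right in each group. The strongest differences fill the columns of Ttpa-/- deficient mice, where replicates 2 and 4 of the cortex and replicate 4 of the cerebellum are nearer to the wild-type mean, and the Cd72 rows differ between the regions.

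The order of the arrays was shared between genes. Replicate 4 of Ttpa-/- deficient mice was the highest of its group for 17 of 17 probes in the cortex and 15 of 17 in the cerebellum. The lowest array of the group in the cortex was replicate 1 for 8 probes and replicate 3 for 9, and in the cerebellum replicate 1 for 8, replicate 2 for 7 and replicate 3 for 2. Replicate 2 was at 20.6% of the wild-type mean for Gm13298 in the cortex and at most at 1.34% in the cerebellum, so the same number did not mark the same level in both regions. The sources used here do not state whether arrays of the same number come from the same mouse.

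**Figure D4:**
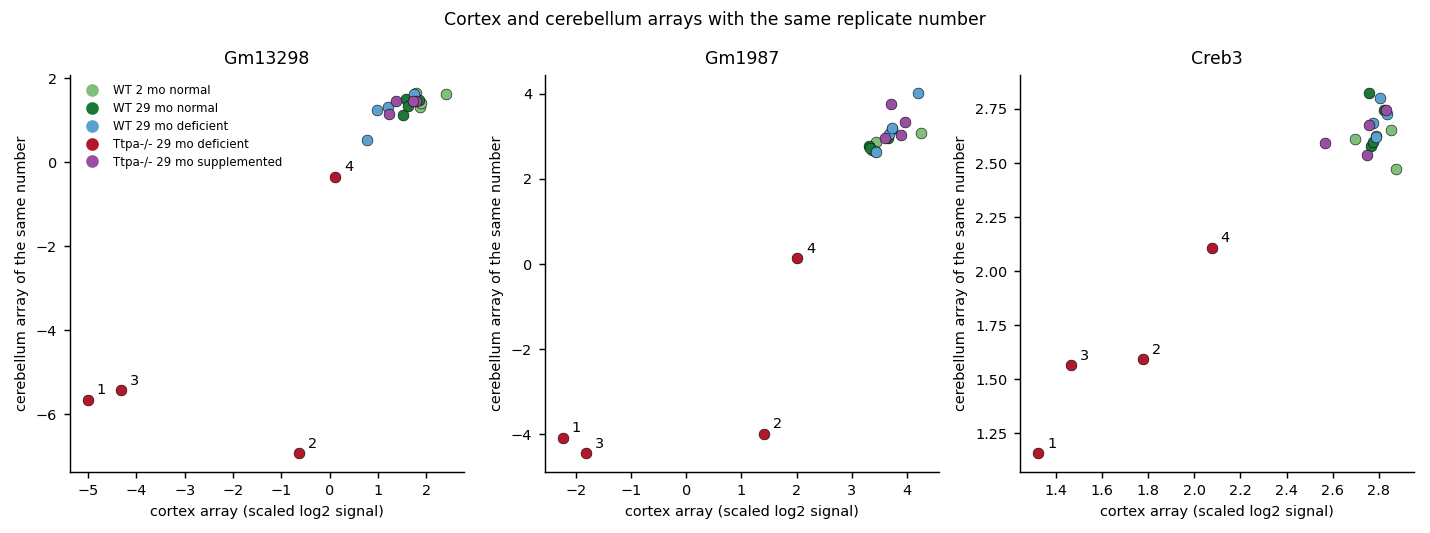
Scaled log2 signal on the cerebellum array (vertical axis) against that on the cortex array of the same replicate number (horizontal axis), coloured by group. Replicate 4 of Ttpa-/- deficient mice is the highest of its group on both axes for Gm13298, at 0.11 in the cortex and -0.34 in the cerebellum, and replicate 2 is high in the cortex only, at -0.63 against -6.93.

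These low levels were not seen in Ttpa-/- supplemented mice or in wild-type deficient mice. In Ttpa-/- supplemented mice, 0 of 17 probes in the cortex were called by limma or by the methods' t-test, and 0 at an unadjusted limma p under 0.05, where 0.0920% of all tested probes were called. The limma SEs for Gm13298, Gm1987, LOC100503421, 4933409K07Rik and Gm3893 were 0.86, 0.70, 0.73, 1.02 and 0.75. They include the spread of Ttpa-/- deficient mice, so a limma count of 0 says little about these genes. In the cerebellum 1 probe was called, the dim Gm13298 probe, which was higher by 1.03 (SE 0.33), where 3.34% of all tested probes were called higher. This call was lost without replicate 1, 3 or 4 of the group and without replicate 1 or 4 of the wild-type normal mice. Differences of the 9 genes from wild-type normal mice ran from -0.20 for Gm3893 and Cd72 to 0.29 for Gm1987 in the cortex and from -0.24 for Cd72 to 0.37 for Gm1987 in the cerebellum.

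In wild-type deficient mice, 0 of 17 probes were called by limma in either region, where 0.223% and 1.28% of all tested probes were called. The same wide limma SEs apply, so this says little about Gm13298, LOC100503421, 4933409K07Rik and Gm3893. In that order, these differed by -0.47, -0.56, -0.52 and -0.60 in the cortex and by -0.18, 0.13, -0.02 and 0.12 in the cerebellum. At an unadjusted limma p the count was 0 in the cortex and 1 in the cerebellum, the dim Gm13298 probe, and the methods' t-test without adjustment gave the same counts. Differences of the 9 genes ran from -0.60 for Gm3893 to 0.25 for Gm1987 in the cortex and from -0.25 for Gm13308 to 0.32 for Gm1987 in the cerebellum. Replicate 4 of this group was the highest for 12 of 17 probes in each region, and replicate 2 the lowest for 8 in the cortex and 11 in the cerebellum.

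Both Ttpa-/- groups of the cerebellum lay on 1 slide, so the diets can be set side by side there within a slide. On that slide the mean of the deficient diet minus that of the supplemented diet was -5.96 for Gm13298, -6.37 for Gm1987, -5.55 for LOC100503421, -5.74 for 4933409K07Rik and -5.34 for Gm3893. The same difference was -1.38 for Ccl27a, -1.39 for Gm13308, -1.03 for Creb3 and 0.16 for Cd72. In the cortex, where the diets lay on different slides, it was -4.00 for Gm13298, -3.96 for Gm1987, -1.67 for Ccl27a, -1.07 for Creb3 and -0.82 for Cd72. Against wild-type mice on the same deficient diet, Ttpa-/- mice were at -3.64 for Gm13298, -3.93 for Gm1987 and -1.14 for Creb3 in the cortex and at -5.76, -6.32 and -1.10 in the cerebellum. The comparisons with wild-type normal mice all share the same 4 arrays of that group in each region.

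With age, Cd72 was the gene that stood out. It was at -4.53 and -4.06, both not well above background, and at -3.76 and -3.54 in the cortex of young wild-type mice, and at -4.04, -3.99, -3.57 and -3.83 in the cerebellum. The wild-type normal mice, with the values given above, were higher by 1.30 (SE 0.20), 2.47-fold, and by 2.22 (SE 0.20), 4.67-fold. In the young cortex 2 of 4 arrays were well above background, and the difference there was 0.36 with normexp. Both Cd72 probes were called higher in each region, 2 of 17 probes, where 1.59% of all tested probes in the cortex and 3.99% in the cerebellum were called higher, and both calls in the cortex were lost with normexp, with the compared groups alone and with the methods' t-test after adjustment. Beside this, 4 of 5 tested microglia marker genes rose with age in the cerebellum, their mean going from a range of 0.26 to 0.71 in the young wild-type mice to 1.31 to 1.49 in the aged mice, while in the cortex the ranges were 2.30 to 2.68 and 2.32 to 2.58. Of 4 B-cell marker genes on the array, 2 were well above background on no array of the young cerebellum and each was on at least 1 array of the aged cerebellum, their mean ranging from -5.15 to -4.76 in the young and from -4.997 to -2.98 in the aged mice. Blood genes rose with age in the cerebellum, 2 of 3 tested (Hbb-b1 and Alas2, median 2.58), as did 2 of 4 striatal genes (median 0.47). There 2 of 6 choroid plexus genes fell (Ttr and Kl, median -1.43), where 318 of 30627 tested probes fell. In the cortex 2 of 6 striatal genes fell with age (Adora2a and Rgs9, median -0.83), where 140 of 28043 tested probes fell. The 2 tested blood genes (median 2.67) and the 7 choroid plexus genes (median -0.49) were not called in the cortex. The part of any of these cell types and tissues in the Cd72 levels was not tested.

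Between the wild-type groups on the normal diet, which share a slide in the cortex, 12 of 17 probes were lower in every aged array than in every young array, where 7.08% of all tested probes were, and these differences did not pass the call. Differences were -0.34 for Gm13298, -0.35 for Ccl27a, -0.39 for Gm13308, -0.43 for LOC100503421, -0.44 for 4933409K07Rik and -0.43 for Gm3893. All of these were under the fold of 1.5. Their limma SEs of 0.86, 0.22, 0.13, 0.73, 1.02 and 0.75 use the spread of all groups, Ttpa-/- deficient mice included. In the young and aged cortex groups alone, the SD was 0.28 and 0.14 for Gm13298 and 0.11 and 0.09 for LOC100503421. The dim Gm13298 probe did not overlap, differed by -0.76 (SE 0.33), 1.69-fold lower, and was not called either. By the brightest probes, the groups overlapped for Gm13298, for Gm1987, at -0.12, and for Creb3, at -0.02. The cerebellum differences of the same genes ran from -0.21 to 0.21, and 0 of 17 probes were lower without overlap, where 9.24% of all tested probes were.

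The array carries other probes between 41 and 44 Mb of chromosome 4. They are those left in the interval after the genes with low signal in Ttpa-/- deficient mice had been listed, so their counts and median in that contrast are partly fixed by the choice. In Ttpa-/- deficient mice, 2 of 69 tested neighbours fell and 1 rose in the cortex, and 4 of 71 fell and 4 rose in the cerebellum, where 4.75% and 4.46% of all probes were called. Their median difference was -0.01 in each region. The count in the cortex went from 3 to 5 without replicate 4 of Ttpa-/- deficient mice, and that in the cerebellum from 8 to 5 without replicate 3. Over the 40 to 50 Mb interval of the chromosome, 2.58% and 4.83% of tested probes outside the set were called. Other intervals of 10 Mb differed widely. In the cortex they ran from 1.3% at 10 to 20 Mb to 22.7% at 70 to 80 Mb, where 22 probes were tested. The cerebellum had 2.52% at 100 to 110 Mb and 12.2% at 80 to 90 Mb as its lowest and highest shares.

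Those neighbours that fell in both regions were 1 probe of Ccl19 and A_55_P2058557, a probe without a gene name. Ccl19, the Ccr7 ligand encoded among the copies, was at -0.55, -1.26, -1.73 and -1.03 in the cortex of wild-type normal mice and at -3.33, -2.49, -3.36 and -2.32 in Ttpa-/- deficient mice, a fall by 1.74 on the log2 scale (SE 0.30, limma adjusted p = 0.000251). In the cerebellum it went from -0.82, -0.99, -1.27 and -0.42 to -2.22, -1.84, -1.99 and -1.46, a fall by 1.001 (SE 0.30, limma adjusted p = 0.0241). Replicates 2 and 4 were the higher arrays of Ttpa-/- mice in the cortex and replicate 4 in the cerebellum, as for Gm13298. The difference between the regions did not pass the test (limma interaction adjusted p = 0.293).

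The other Ccl19 probes, which lie 5′ of this one on the same strand, did not pass the call. They differed by 0.10 and -0.56 in the cortex and by -0.18 and -0.50 in the cerebellum. The probe without a gene name, A_55_P2058557 at 42972193 to 42972252 of chromosome 4, was at -1.37, -1.45, -1.47 and -1.64 in the wild-type cortex and at -4.64 (not well above background), -3.36, -5.10 (not well above background) and -2.50 in Ttpa-/- deficient mice, a fall by 2.42 (SE 0.34, limma adjusted p = 3.48e-05). It fell by 1.43 in the cerebellum (SE 0.34, limma adjusted p = 0.0055), where 2 of 4 arrays of Ttpa-/- deficient mice were well above background. Both falls take the dim arrays at their measured signal and are not bounds. The longest run of bases this probe shares with a probe of the set is 9.

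Of the remaining neighbours, Sit1, a lymphocyte adaptor, was higher by 0.68 in the cortex (limma adjusted p = 0.0159). In the cerebellum, Tpm2, a muscle-type tropomyosin, fell by 0.80 and by 0.91 on its probes, Atp8b5, a phospholipid flippase not well above background in the wild-type mice, was at least 1.82-fold higher, and 3 probes named only by a transcript identifier rose by 0.60, 0.69 and 0.87. In Ttpa-/- supplemented mice, 0 of 65 tested neighbours in the cortex were called by limma, 0 at an unadjusted limma p and 1 by the methods' t-test without adjustment, and 5 of 73 in the cerebellum rose. Those 5 went to 2 without replicate 2 of the group, and to 3 without its replicate 4 or without replicate 1 or 3 of the wild-type normal mice. In wild-type deficient mice 0 of 67 and 0 of 70 were called by limma, with 1 and 2 at an unadjusted p and 0 and 1 by the methods' t-test without adjustment. Without replicate 4 of that group the counts were 3 and 2, and without replicate 4 of the wild-type normal mice the count in the cortex was 1. With age, Glipr2 rose by 0.89 in the cortex, and in the cerebellum the 3 Ccl19 probes rose by 0.71, 0.86 and 1.32 and Car9, a carbonic anhydrase, fell by 1.66.

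**Figure D5:**
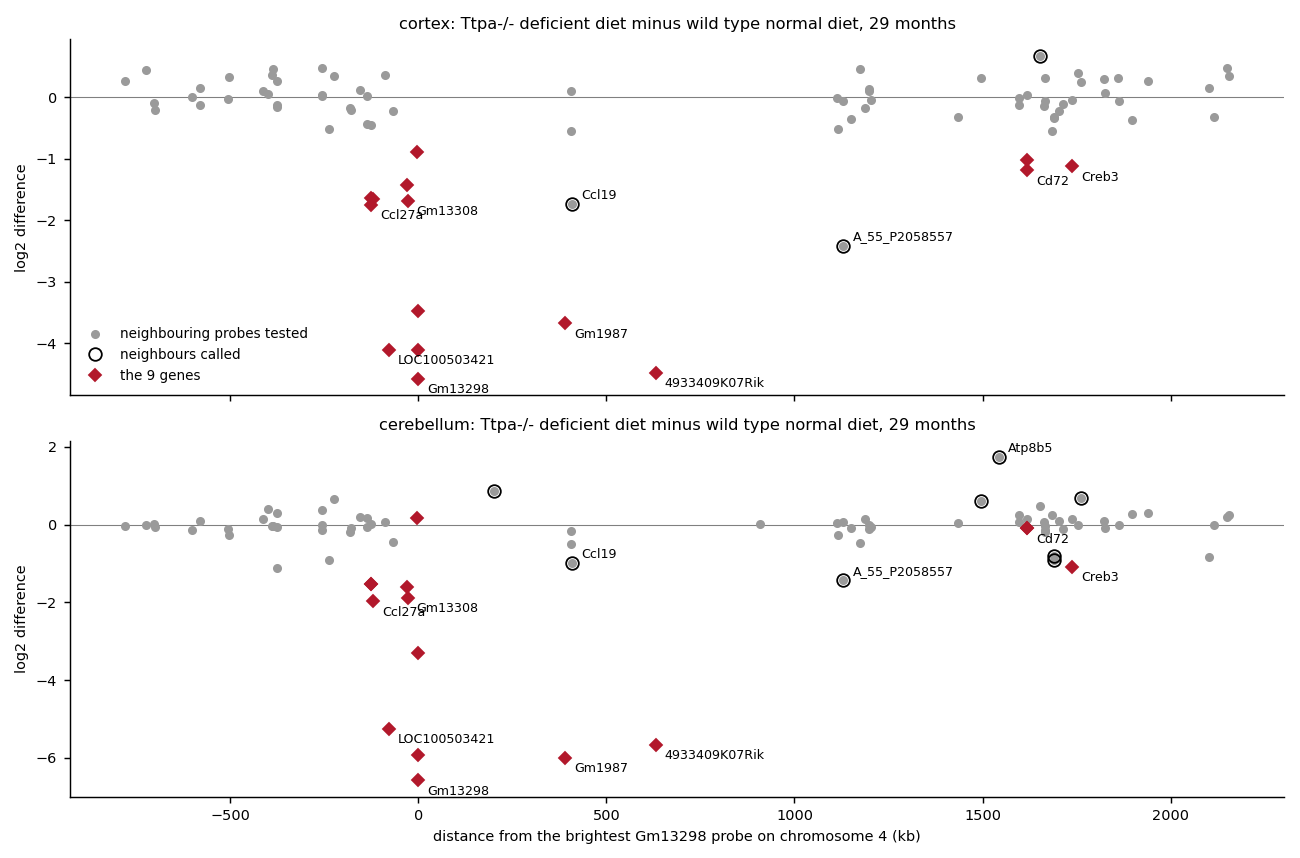
Log2 difference between Ttpa-/- deficient mice and wild-type normal mice (vertical axis) of each probe of the set and each tested neighbour between 41 and 44 Mb of chromosome 4, against its distance in kb from the brightest Gm13298 probe (horizontal axis), cortex above and cerebellum below. Probes of the set reach down to -4.58 in the cortex and -6.58 in the cerebellum and stand among neighbours whose median is -0.01.

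Probes on the opposite strand abut Ccl27a and overlap Creb3. The probe of Il11ra1, the interleukin 11 receptor alpha chain, ends at the base before the brightest Ccl27a probe, with 0 bases between them, on the opposite strand. It fell by 0.45 in the cortex (limma adjusted p = 0.0019), under the fold of 1.5, and differed by 0.02 in the cerebellum (limma adjusted p = 0.930). The probe of Gba2, the bile acid beta-glucosidase gene, overlaps the Creb3 probe by 34 bases on the opposite strand and differed by -0.05 (limma adjusted p = 0.652) and 0.14 (limma adjusted p = 0.159). No equal change of the opposite strand stood beside the low signals of Ccl27a and Creb3.

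Ccl19 was the only listed partner of the encoded proteins called in Ttpa-/- deficient mice. Of 20 genes listed for them, which are the chemokine receptors and ligands, the interleukin 11 receptor genes, Sema4d and Ptpn6 for Cd72, and the Creb3 relatives and proteases, 16 were on the array. In Ttpa-/- deficient mice 1 of 13 tested fell in the cortex and 1 of 14 in the cerebellum, in each case Ccl19, where 1.60% and 1.79% of all tested probes fell. The list's median was -0.06 in the cortex and 0.03 in the cerebellum. On the supplemented diet, and in wild-type deficient mice, 0 of 14 were called by limma in either region, with 0 at an unadjusted p except for 1, Ccl19, in the cerebellum of wild-type deficient mice, and 0 by the methods' t-test. Of all tested probes, limma called 0.0920% in the cortex on the supplemented diet, while 490 fell and 1045 rose of 31265 in the cerebellum. In wild-type deficient mice it called 0.223% and 1.28%. With age, 1 of 14 rose in the cortex, Creb3l3, and 3 of 14 in the cerebellum, Creb3l3, Ccl19 and Ptpn6. Among all tested probes 1.59% and 3.99% rose.

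Genes elsewhere were compared with Gm13298 by Pearson's r over the 40 arrays after subtracting each group's mean, among 33617 probes well above background on at least 10 arrays. These values describe how arrays of 1 group vary together, they share all libraries, and they are weighted towards Ttpa-/- deficient mice because Gm13298 varied most there. Within the set, r was 0.98 for LOC100503421, 0.98 for 4933409K07Rik, 0.93 for Gm3893, 0.93 for Gm1987, 0.84 for Ccl27a, 0.77 for Creb3, 0.70 for Gm13308 and 0.22 for Cd72. Without the 8 arrays of Ttpa-/- deficient mice, r over 32 arrays was 0.87, 0.87, 0.90, 0.28, 0.57, -0.01, 0.25 and 0.31 in the same order. LOC100503421, 4933409K07Rik and Gm3893 thus varied with Gm13298 in the other groups as well, and Creb3 did not.

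Outside the set the highest values were 0.88 for A_55_P2172693, an unnamed probe on chromosome 18, 0.84 for Zfp131, 0.82 for Car8, 0.79 for the transcript ENSMUST00000058139, 0.76 for LOC100044171, 0.74 for a noncoding transcript on chromosome 4, 0.74 for a further unnamed probe on chromosome 18, 0.74 for Eif2s2, 0.73 for Ccdc58 and 0.73 for Tdrd3. The lowest were -0.83 for Trim28, -0.81 for Gapdh, -0.81 for Fbxo44, -0.80 for Gm6981 and -0.80 for an unnamed probe. Without the 8 arrays, r was 0.81 for the first unnamed probe, -0.07 for Zfp131 and 0.58 for Car8. That unnamed probe was not well above background on any cortex array of Ttpa-/- deficient mice, at least 3.58-fold lower than in wild-type normal mice (limma adjusted p = 3.14e-05), and shares at most 8 bases in a row with a probe of the set.

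Car8, a carbonic anhydrase-related protein of Purkinje cells, was measured by a probe at 8070545 to 8070604 of chromosome 4. In the cerebellum it was at 4.79, 4.68, 4.59 and 4.68 in wild-type normal mice, at 1.56, 1.44, 1.77 and 3.65 in Ttpa-/- deficient mice and at 1.67, 1.87, 1.76 and 1.88 in Ttpa-/- supplemented mice. Replicate 4 of the deficient diet was the highest of its group, as for Gm13298. Car8 fell in both Ttpa-/- groups (limma adjusted p = 0.000568 and 0.000165), whereas the Gm13298 values on the supplemented diet lay within the range of wild-type normal mice in the cerebellum.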

How the data were processed

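Total RNA of the cortex and cerebellum was labelled with Cy3 and hybridised to 40 Agilent arrays. The deposited scanner tables, made by the authors with Feature Extraction 10.7.3.1 per the file headers (10.1.1.1 in the submitters' processing notes), hold a processed signal, which is an intensity after background subtraction and detrending, the mean and background intensity, and flags of 0 or 1. A deposited table of the authors on the log2 scale equalled, to a median absolute difference of 0.00085, the log2 intensity scaled to the 75th percentile of its array, after subtraction of each probe's mean.

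Spots flagged as non-uniform or outliers (95 to 148 per array) were removed, the remaining spots of a probe were averaged, and 55589 of 55681 probes with a value on every array were kept. The log2 signal was scaled to the 75th percentile (365 to 925). Groups were taken from the labels and fitted with limma 3.58.1 in R 4.3.3, with a coefficient for each of 10 groups and no block. A probe was tested when all 4 arrays of either compared group were well above background, and a call needed a Benjamini-Hochberg adjusted p under 0.05 and a fold over 1.5. The script was tested on simulated data. Precision is limited by 4 arrays per group. Cortex arrays were compared within the cortex and cerebellum arrays within the cerebellum.

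The members and gene lists were chosen with earlier results of these data known. The text names all 17 probes, neighbours from 41 to 44 Mb called in any comparison, the 10 probes most and 5 least like Gm13298 and Ttpa, and the partner genes as a list. Sequences are those of the scanner tables, and names were matched to RefSeq without its coordinates, since its build differs from mm9. Alternatives were median scaling, quantile normalization, normexp with an offset of 50, no filter on dim probes, the compared groups alone, the authors' log2 values, the methods' t-test, the replicate number as a block, and leaving out each array.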

Additional observations from a re-analysis of the deposited data

Results flagged for a closer look

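Of 90 sets of 4 arrays, 1 for each of the 9 genes in each group, 10 held an array far from the other 3. Chance alone gives about 1 in 20 in independent sets. These sets are not independent, since the genes share the same arrays and several vary together, so the count is not compared with that rate. In the cerebellum of Ttpa-/- deficient mice, replicate 4 stood above its group for Gm1987 at 0.14 (next -3.99), Ccl27a at 3.07 (next 1.98), LOC100503421 at -2.13 (next -6.23) and 4933409K07Rik at -0.23 (next -6.67). In the cortex of young wild-type mice, replicate 4 was high for Gm13298 at 2.41 (next 1.90), Gm1987 at 4.27 (next 3.45) and Gm3893 at 1.33 (next 1.01). Single arrays stood apart for Gm13298 in the cerebellum of Ttpa-/- supplemented mice, where replicate 2 was low at 1.15 (next 1.44), for LOC100503421 in the cortex of wild-type deficient mice, where replicate 4 was high at 0.16 (next -0.70), and for LOC100503421 in the cerebellum of wild-type normal mice, where replicate 1 was low at -0.60 (next -0.11).

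Effects differed between the regions for 3 neighbours by the interaction in limma. The log2 difference in the cortex minus that in the cerebellum was 0.59 for a Tpm2 probe in Ttpa-/- deficient mice (adjusted p = 0.0351), 1.14 for Glipr2 with age (adjusted p = 0.00503) and 1.88 for Car9 with age (adjusted p = 0.021). With arrays of the same group and number in both regions as a random block, an alternative chosen after seeing the data, the adjusted p values were 0.020, 0.00266 and 0.0112. For 4933409K07Rik the age difference was -0.44 in the cortex and 0.21 in the cerebellum, -0.66 apart, a difference that was not tested.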

How the results depend on the processing

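Differences of the 9 genes kept their sign under every alternative run wherever they had been called, and 924 values over all comparisons and alternatives moved by less than the spread between arrays. For the replicate block and for leaving out an array this was fixed in advance, since neither can move a difference by that spread. The spread is also wide in Ttpa-/- deficient mice, so Gm3893 in the cortex counted as unmoved at -2.56 against -4.22. The values that exceeded the spread are given next. The 12 that moved more came from normexp, where low signals are lifted by the offset and differences of dim probes shrink (Gm13298 to -3.66 and 4933409K07Rik to -3.06 in the cerebellum, LOC100503421 to -2.15 and -2.64, Gm3893 to -3.35, Cd72 to -0.39 in the cortex and to 0.36 and 1.25 with age), and from median scaling in wild-type deficient mice. Median scaling moved the median of all probes in the cerebellum of that group from -0.01 to -0.19. In Ttpa-/- deficient mice, the 16 calls in the cortex became 7 with the compared groups alone and 6 with the adjusted t-test, and the 14 in the cerebellum became 7 with the adjusted t-test. The neighbours' 3 calls in the cortex became 6 without a filter and 1 with the adjusted t-test, and the 8 in the cerebellum became 5 under median scaling and 3 under normexp. In the cerebellum of Ttpa-/- supplemented mice, the 1 call became 0 under median scaling, normexp, no filter, the groups alone and the adjusted t-test, and the neighbours' 5 became 1, 0, 3 and 1 under median scaling, normexp, the groups alone and the adjusted t-test. In the cortex of that group, 1 neighbour was called by the unadjusted t-test. In the cerebellum of wild-type deficient mice, the unadjusted t-test called 1 probe of the set, and median scaling, normexp, no filter and the unadjusted t-test called 1 neighbour each. With age in the cortex, the 2 Cd72 calls became 0 under normexp, the groups alone and the adjusted t-test, and the 1 neighbour call became 0, 0 and 0 under these and 2 with the unadjusted t-test. The cause of these moves was not tested. Leaving out each array gave 16 to 17 and 14 to 14 calls of the set in Ttpa-/- deficient mice, 0 to 1 in the cerebellum on the supplemented diet, 2 to 2 with age in each region, and 0 to 0 elsewhere. For neighbours it gave 2 to 5 and 5 to 9, 0 to 0 and 2 to 7 on the supplemented diet, 0 to 3 and 0 to 2 in wild-type deficient mice, and 1 to 1 and 4 to 5 with age. With the replicate number as a block, the calls of the set were the same in number in all 8 comparisons, 16 and 14 in Ttpa-/- deficient mice, and the neighbours' count differed once, at 6 for 5 in the cerebellum on the supplemented diet. Same-numbered arrays did not deviate together in every pair (r from -0.29 to 0.30 in the cortex and -0.45 to 0.20 in the cerebellum for Ttpa-/- deficient mice against wild-type normal mice), so the number pairs no samples there. A slide block could not be fitted, since every group lies on 1 slide.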

Other observations

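Over 24796 probes outside the set, cortex and cerebellum arrays of the same replicate number deviated from their group means together in Ttpa-/- mice on the deficient diet, with r of 0.17, 0.47, 0.17 and 0.63 for replicates 1 to 4, and each array correlated best with its own number. In the same order, r was 0.07, 0.45, 0.25 and 0.44 in Ttpa-/- supplemented mice, 0.37, 0.05, -0.04 and 0.40 in wild-type deficient mice, 0.12, -0.16, 0.38 and 0.31 in wild-type normal mice and -0.01, -0.08, -0.16 and 0.13 in young wild-type mice. These are correlations across probes of the same arrays, which are not independent, and carry no test. The probe of Gm2002, an interleukin 11 receptor copy inside the interval, was not well above background on any array and has no value here.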
